A study of Mus musculus with 12 samples.

Results

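The miRNAs described here are the 10 mature arms of 5 hairpins, miR-532, miR-188, miR-362, miR-501 and miR-500, which lie in an intron of Clcn5 on the mouse X chromosome. They were chosen by name, both arms of each hairpin, from the 1965 mature mouse miRNA names of the deposited table. Of the 10 arms, 6 had a read in at least 1 of the 12 libraries, and 5 passed the filter on low values (at least 10 CPM in at least 4 libraries) and were tested. CPM are a library's values scaled to a common total over the listed miRNAs. The 5 tested arms were mmu-miR-501-3p, mmu-miR-501-5p, mmu-miR-500-3p, mmu-miR-362-3p and mmu-miR-362-5p, written below without the species prefix.

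The miRNAs were measured in exosomes (small secreted vesicles) of primary mouse hepatocytes at passage 0. The hepatocytes were labelled as lean (control, normal chow), 4 weeks of high-fat diet (HFD) or 16 weeks of HFD and each of these 3 groups has 4 libraries. The culture medium was the same throughout, Williams' E with glutamax and bovine serum. The strain, age and sex of the mice are not given in the sources used here. Nothing says that replicates are different animals, so p-values measure only the spread between these libraries, which may be technical.

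A miRNA hairpin is cut by the enzymes Drosha and Dicer into a short duplex whose arms are named 5p and 3p. As a rule, 1 arm is loaded into an Argonaute protein and the other is degraded, so the arms of a hairpin are usually found at unequal levels. The loaded arm finds its target mRNAs mainly through its seed, bases 2 to 8. The host gene Clcn5 encodes a chloride-proton exchanger of endosomes, best known from the kidney proximal tubule, where its loss in humans causes Dent disease. In neurons of rodents, miR-501-3p is known to repress the glutamate receptor subunit GluA1. Mouse miR-188 is known from bone marrow stromal cells, where it shifts their fate between bone and fat. Human miR-500 was described as raised in the serum of patients with liver cancer.

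The hairpins lie on the minus strand within 10815 bp of chromosome X (7237683 to 7248497, GRCm38, the assembly also called mm10). In the direction of transcription the order was miR-532, miR-188, miR-362, miR-501 and miR-500. Each hairpin lay inside the same Clcn5 intron (7213011 to 7316658) in 3 of 5 annotated Clcn5 transcripts, and 0 transcripts had an exon over any of them (GENCODE M21). RefSeq sequences (GRCm38.p6) matched 9 of the 10 arms, all except miR-532-5p. The mature sequences are given because the arms resemble each other, which bears on how reads can be assigned. Capitals mark the seed, 5′ to 3′.
mmu-miR-501-3p: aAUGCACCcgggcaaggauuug
mmu-miR-500-3p: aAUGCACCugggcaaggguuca
mmu-miR-362-3p: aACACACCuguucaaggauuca
mmu-miR-501-5p: aAUCCUUUgucccugggugaaa
mmu-miR-362-5p: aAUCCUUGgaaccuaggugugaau
mmu-miR-500-5p: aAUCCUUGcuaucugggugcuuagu
mmu-miR-188-5p: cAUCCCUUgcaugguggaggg
mmu-miR-188-3p: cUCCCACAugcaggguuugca
mmu-miR-532-3p: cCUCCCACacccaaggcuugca

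Some of the arms share a seed, while the others each have their own. The 3p arms of miR-501 and miR-500 share the seed AUGCACC, and the 5p arms of miR-362 and miR-500 share AUCCUUG. Counted from 1 at the 5′ end, the seed of miR-501-5p differs from that of miR-362-5p by U8G. With the same count, miR-501-3p and miR-500-3p were identical at 18 of 22 positions (81.8%), with the substitutions C9U, A18G, U21C and G22A. The 3p arms of miR-500 and miR-362 were identical at 17 of 22 positions. How the authors treated reads that match several miRNAs is not given in the sources used here, so the split of reads between miR-501-3p and miR-500-3p is uncertain. Outside the cluster, the seed of miR-362-3p is shared by miR-329-3p of the Dlk1-Dio3 region, which had 1 read in the lean group and was listed at 0 in both HFD groups. The seed of miR-188-5p is shared by miR-7061-3p, listed at 0 in all libraries.

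Because the results turn on the arms of miR-501 and miR-362, their hairpins are shown with the annotated arms in capitals, the 5p arm first.
Mir501 (chromosome X, 7241243 to 7241351, minus strand): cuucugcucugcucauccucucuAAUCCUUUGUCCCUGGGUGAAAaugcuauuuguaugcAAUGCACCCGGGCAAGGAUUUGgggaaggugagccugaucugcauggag
Mir362 (chromosome X, 7241982 to 7242046, minus strand): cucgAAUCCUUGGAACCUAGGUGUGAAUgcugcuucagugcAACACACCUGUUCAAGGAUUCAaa

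Few reads stood behind the table. Reads numbered 13748 to 30430 per library in lean, 2352 to 4477 after 4 weeks and 20538 to 37596 after 16, so that 1 read stood for 32.9 to 72.7 CPM, 223 to 425 CPM and 26.6 to 48.7 CPM. A single miRNA, miR-101b-3p, took 54.8% to 70.2% of the lean CPM, 15.9% to 36.8% after 4 weeks of HFD and 52.4% to 66.3% after 16. Since CPM share a fixed total, the CPM of the other miRNAs sum to more at 4 weeks. Of the marker lists, all 7 hepatocyte miRNAs were above 0 in at least 1 of the 12 libraries, but 5 of 7 in lean, 3 of 7 at 4 weeks and 6 of 7 at 16 weeks. Their sum was mostly miR-101b-3p (551019 to 706669 CPM in lean, 161067 to 369220 at 4 weeks and 535836 to 675551 at 16 weeks). Of the others, miR-802-3p had 3067 to 7164 CPM in lean, 447 to 2052 at 4 weeks and 6246 to 17901 at 16 weeks. In the same order miR-192-5p had 145 to 409, 425 to 900 and 536 to 1743 CPM. The defining miR-122-5p had 1, 0 and 2 reads in the lean, 4-week and 16-week groups. For miR-155-5p and miR-486a-5p some values are not whole reads of their own library, so the leukocyte and red blood cell lists are given without them. In the leukocyte list 3 of the other 7 were above 0 (6017 to 32718 CPM in sum in lean, 20833 to 38081 at 4 weeks and 41581 to 67631 at 16 weeks), with miR-223-3p, miR-142a-3p, miR-142a-5p and miR-150-5p at 0. In the cholangiocyte and epithelial list 3 of 5 were above 0 (0 to 136 CPM, 223 to 1026 CPM and 26.6 to 299 CPM), with miR-200b-3p and miR-200c-3p at 0. In the red blood cell list miR-451a had 3 reads in lean and 0 in both HFD groups, with miR-144-3p and miR-144-5p at 0. In the stellate and fibroblast list 2 of 9 were above 0 (3491 to 6112 CPM, 3127 to 4617 CPM and 4920 to 8352 CPM). The defining miR-143-3p, miR-145a-5p, miR-199a-3p and miR-214-3p were at 0. Of the 2 endothelial markers miR-126a-3p had 1 read, at 16 weeks, and all 3 muscle markers were at 0. Some miRNAs found in nearly every cell were also listed at 0 in all libraries. Markers at 0 therefore do not show that a cell type was absent. The few reads of miR-122-5p likewise set no limit on its level in these exosomes. Depth, the miR-101b-3p share and miR-802-3p set the 4-week libraries apart from both other groups. The epithelial list and miR-192-5p set them apart from lean, on few reads. At 4 weeks these were 6 of miR-200a-3p, 2 of miR-141-3p, 1 of miR-429-3p and 8 of miR-192-5p. In sum the leukocyte list set the 16-week libraries apart from both other groups, though none of its members did so alone. For miR-146a-5p the 16-week range (22955 to 43294 CPM) overlapped with 4 weeks (10275 to 26417 CPM). For miR-511-3p it (15375 to 26488 CPM) overlapped with lean (3635 to 20721 CPM), and for miR-511-5p with both groups. The stellate and fibroblast list, mostly miR-125b-2-3p, set the 16-week libraries apart from the 4-week libraries, while miR-99a-3p overlapped. The part of depth and of these markers in the results below was not tested.

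Together the 10 arms made up 0.948% ± 0.0462 of the lean CPM, 2.98% ± 1.31 after 4 weeks of HFD and 1.19% ± 0.311 after 16 (mean ± SD of 4 libraries). The cluster reads behind these shares numbered 134 to 275 per lean library, 35 to 154 per 4-week library and 289 to 341 per 16-week library. Every 4-week library (1.49% to 4.20%) lay above every lean one (0.904% to 0.997%), whereas lean and 16-week libraries overlapped. Set against the CPM other than miR-101b-3p, the cluster stood at 2.60% ± 0.555 in lean, 4.00% ± 1.65 at 4 weeks and 2.95% ± 0.317 at 16 weeks. On that scale 4-week replicate 2 (1.89%) fell below all lean libraries, so the groups overlapped. From such shares, a change in the vesicles collected, in RNA per vesicle or in the other miRNAs cannot be told apart.

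The hairpins at the start of the stretch, in the direction of transcription, gave almost no reads. Both arms of miR-188, miR-532-5p and miR-500-5p were listed at 0 in all 12 libraries, and miR-532-3p had a single read, in 16-week replicate 1 (26.6 CPM). In this table miR-16-5p and let-7f-5p, found in nearly every cell and named here after their values were seen, were also listed at 0 in all libraries, so no limit is set on these arms. The reads of the cluster therefore came from miR-362, miR-501 and miR-500, the last 3 hairpins of the stretch.

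The strongest member was miR-501-3p, the 3p arm of miR-501. Its level was 4946, 3089, 5348 and 4839 CPM in lean replicates 1 to 4. It was 29751, 11054, 16976 and 33583 CPM in the 4-week libraries and 4070, 5979, 8257 and 11101 CPM in the 16-week libraries. Each 4-week library exceeded every lean one, and 3 of 4 exceeded every 16-week one. The group means were 4556 ± 1002, 22841 ± 10590 and 7352 ± 3030 CPM (mean ± SD of 4 libraries). Among all miRNAs of a library it ranked 16 to 29 in lean, 6 to 13 at 4 weeks and 12 to 26 at 16 weeks. The order of the group means in CPM was thus 4 weeks, 16 weeks and lean, and the 16-week libraries overlapped with both other groups.

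**Figure D1:**
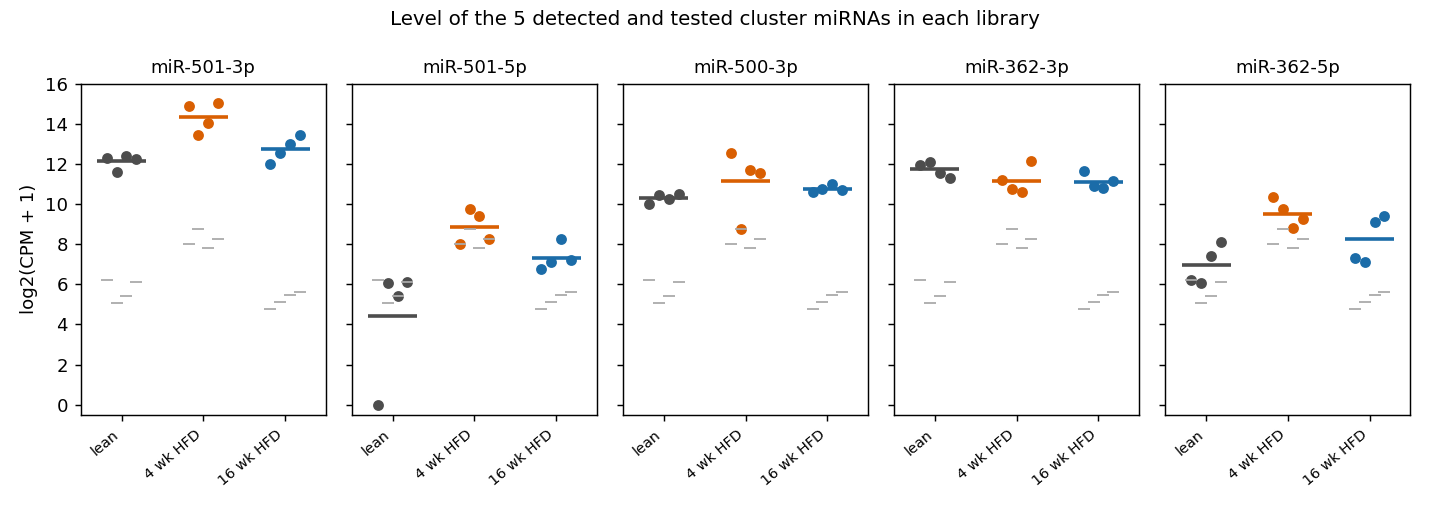
Level of the 5 tested cluster miRNAs in each library, as log2(CPM + 1), by group. Points are libraries in the order of their replicate numbers, long horizontal lines are group means, and short grey lines mark the CPM of 1 read in each library. The miR-501-3p points at 4 weeks lie above all lean points, while those of miR-362-3p overlap between groups, and the points of miR-501-5p and miR-362-5p stand for 0 to 14 reads each.

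Against lean, 4 weeks of HFD was the comparison with most calls by limma. The 3p arm of miR-501 rose, with a log2 fold change of 2.22 (SE 0.42, limma adjusted p = 0.00282, higher in 4 of 4 libraries). The count test on recovered reads gave 1.77 (edgeR adjusted p = 0.000631). Its 5p arm, miR-501-5p, was called higher as well, with a log2 fold change of 4.44 (SE 1.35, limma adjusted p = 0.0316), and so was miR-362-5p with 2.59 (SE 0.87, limma adjusted p = 0.0492). Both rest on few reads. In lean miR-501-5p had 0, 2, 1 and 1 reads (0, 65.7, 41.8 and 68.2 CPM), and at 4 weeks 1, 2, 3 and 1 reads (256, 850, 670 and 300 CPM). Its fold depends on the pseudocount, since lean replicate 1 is at 0. For miR-362-5p the lean libraries had 1, 2, 4 and 4 reads (72.7, 65.7, 167 and 273 CPM) and the 4-week libraries 5, 2, 2 and 2 reads (1282, 850, 447 and 600 CPM). The 4-week values of both arms lay above all lean values, while the reads per library numbered 0 to 4 in lean and 1 to 5 at 4 weeks.

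The 3p arms of miR-362 and miR-500 were not called by limma. The level of miR-362-3p was 3928, 4404, 3009 and 2522 CPM in lean and 2308, 1701, 1564 and 4498 CPM at 4 weeks. All 4-week libraries but replicate 4 lay below all lean ones. The difference of -0.56 on the log2 scale (SE 0.46) missed the threshold in limma (adjusted p = 0.379), while edgeR called the arm lower (-1.06, adjusted p = 0.0414), as did DESeq2 (-1.29, adjusted p = 0.0157). With CPM recomputed without miR-101b-3p limma also called it lower (-1.57, adjusted p = 0.0292), and with TMM scaling as well (-1.24, adjusted p = 0.0485). The level of miR-500-3p, which shares the miR-501-3p seed, was 1018, 1413, 1212 and 1431 CPM in lean and 5899, 425, 3350 and 2999 CPM at 4 weeks. In 3 of 4 libraries it was above all lean values, and in 4-week replicate 2, the shallowest library, it rested on a single read. The log2 difference of 0.83 (SE 0.69) missed the threshold (limma adjusted p = 0.383), and without 4-week replicate 2 it was 1.63 and passed it (limma adjusted p = 0.0123).

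In the 4-week comparison limma called 3 of 5 tested members higher and 0 lower. Of all 267 tested miRNAs it called 21%, 9.36% higher and 11.6% lower. The count test called 2 of 4 tested members higher and 1 lower, where it called 55.6% of 72 miRNAs, 25% higher and 30.6% lower. The median log2 difference was 2.22 over the 5 members and -1.27 over all 267 miRNAs. It depended on the setting: with a pseudocount of 500 it was 0.86 and -0.02, with quantile scaling 1.71 and -0.12, and without miR-101b-3p 1.22 and -2.05. In 3 of the 5 members the groups did not overlap, all with 4 weeks higher, against 9.74% of all tested miRNAs in that direction and 11.6% in the other. For miR-501-5p any single read at 4 weeks (at least 223 CPM) lies above the lean maximum of 68.2 CPM. For miR-362-5p each group had 11 reads in all. The count of members apart therefore says little about these 5p arms. The call for miR-501-3p held in 13 of 13 other settings (log2 1.22 to 2.22) and in 12 of 12 fits that left out 1 library. That for miR-501-5p held in 6 of 12 other settings (log2 0.86 to 4.99) and that for miR-362-5p in 5 of 13 (log2 0.98 to 3.03). For miR-501-3p the smallest value came from CPM recomputed without miR-101b-3p (1.22, limma adjusted p = 0.0383), and the call for miR-362-5p was lost there (1.59, limma adjusted p = 0.192). For miR-501-5p the log2 difference there was 3.80 (SE 1.58, limma adjusted p = 0.0912). Leaving out lean replicate 1 or 4-week replicate 2 or 3 ended the limma call for miR-501-5p (log2 2.98, 4.15 and 4.26, adjusted p up to 0.0636). Leaving out any of 7 libraries ended that for miR-362-5p at a log2 difference of 2.29 to 2.74 (lean replicates 1, 2 and 3, 4-week replicates 1, 2 and 4 and 16-week replicate 3, limma adjusted p up to 0.125). With the replicate number as a block the call for miR-362-5p was also lost, at the same log2 difference of 2.59 (limma adjusted p = 0.0717).

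**Figure D2:**
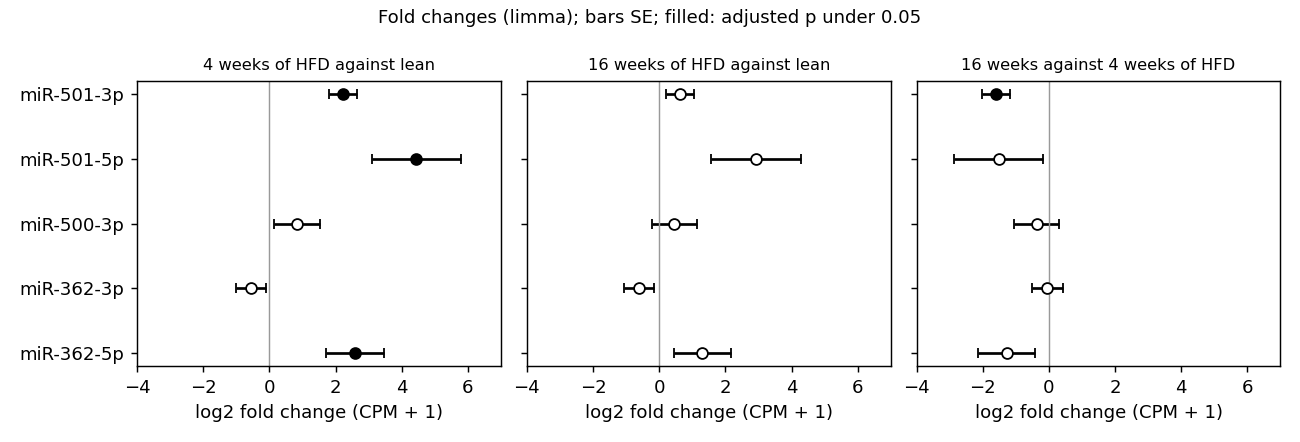
Log2 fold change of the 5 tested cluster miRNAs in the 3 comparisons, on the log2(CPM + 1) scale, with bars of 1 SE. Filled points passed an adjusted p of 0.05 in limma: miR-501-3p, miR-501-5p and miR-362-5p at 4 weeks against lean, 0 members at 16 weeks against lean and miR-501-3p, lower, at 16 against 4 weeks.

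At 16 weeks of HFD against lean, limma called 0 of 5 tested members, against 2.62% of all tested miRNAs (1.12% higher, 1.5% lower). The count test in edgeR called 0 of 4, against 34.7% (18.1% higher, 16.7% lower). DESeq2 called 0 of 5, against 31 of 197 miRNAs (5 higher, 26 lower). At an unadjusted p under 0.05, limma had 1 member, miR-501-5p, and edgeR 0. The fold of miR-501-3p was 0.62 (SE 0.42, limma adjusted p = 0.481). That of miR-501-5p was 2.92 (SE 1.35, limma adjusted p = 0.259), 1.46 without lean replicate 1, the library at 0, and 0.30 with a pseudocount of 500. Its 16-week libraries had 4, 4, 7 and 3 reads (106, 137, 299 and 146 CPM), all above the lean values. For miR-362-5p the 16-week values were 160, 137, 556 and 682 CPM, of which the first pair fell in the lean range and the other pair lay above it (log2 difference 1.30, SE 0.87, limma adjusted p = 0.480). The level of miR-500-3p was 1543, 1743, 2011 and 1655 CPM, above every lean value, with a log2 difference of 0.46 (SE 0.69, limma adjusted p = 0.827). A fit of these 2 groups alone gave an SE of 0.30 and no call (limma adjusted p = 0.373). The level of miR-362-3p was 3165, 1879, 1797 and 2288 CPM, lower than all lean values in 3 of 4 libraries (log2 difference -0.61, SE 0.46, limma adjusted p = 0.528; DESeq2 -0.96, adjusted p = 0.0502). In this comparison 2 of 5 members had groups that did not overlap, both with 16 weeks higher, against 5.62% of all tested miRNAs in that direction and 9.74% in the other.

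Between 16 and 4 weeks, miR-501-3p fell by 1.60 on the log2 scale (SE 0.42, limma adjusted p = 0.0231; edgeR -1.15, adjusted p = 0.0176). It was the only member called by limma, which called 10.5% of all tested miRNAs (6.37% higher, 4.12% lower). It was also the only one called by edgeR, which called 41.7% (20.8% in each direction). In 0 of 5 members were these groups apart, against 7.87% of all tested miRNAs with 16 weeks higher and 5.99% with 16 weeks lower. The call was lost without 4-week replicate 1 or 16-week replicate 1 (log2 -1.43 and -1.35, limma adjusted p up to 0.0807) and with CPM recomputed without miR-101b-3p (-0.69, adjusted p = 0.259). TMM scaling ended it as well (-0.72, adjusted p = 0.203), and so did 4 further settings. The other members had log2 differences of -1.52 (miR-501-5p), -1.28 (miR-362-5p), -0.37 (miR-500-3p) and -0.04 (miR-362-3p), with limma adjusted p-values of 0.343 to 0.961. For miR-500-3p and miR-362-3p the direction turned with the scaling, to 0.53 and 0.86 without miR-101b-3p. The comparisons share libraries, so a high 4-week group enters both the first and the last of them.

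Shares within the cluster do not depend on the scaling of a library. Of the cluster reads, miR-501 held 48.4% ± 9.26 in lean, 78.3% ± 2.36 at 4 weeks and 61.3% ± 10.8 at 16 weeks (mean ± SD of 4 libraries). Each of the 4-week libraries (76.0% to 80.7%) lay above all lean (34.9% to 55.1%) and all 16-week libraries (46.0% to 70.9%). The share of miR-362 was 38.2% ± 8.58 in lean and 11.8% ± 3.89 at 4 weeks, with 23.5% ± 8.82 at 16 weeks, and the 4-week group lay below both others. The share of miR-500 was 13.5% ± 2.66, 9.87% ± 5.90 and 15.2% ± 3.27, with overlapping groups.

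**Figure D3:**
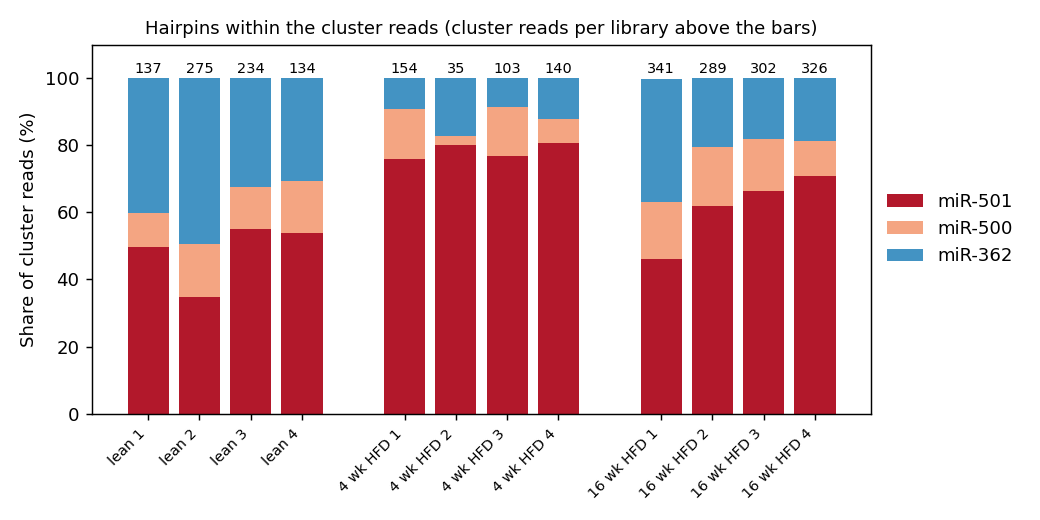
Share of the cluster reads (%) that came from miR-501, miR-500 and miR-362 in each library, with the number of cluster reads above each bar. The miR-501 share lies between 76.0% and 80.7% in the 4-week libraries, above all others; the single miR-532 read in 16-week replicate 1 (0.293% of its cluster reads) is not drawn.

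The miR-501 share was 30.0 percentage points higher at 4 weeks than in lean and the difference in the miR-362 share was -26.4 points. Each had an exact permutation p of 0.0286 (2-sided), the smallest that 70 assignments of 4 against 4 allow, and an adjusted p of 0.107 over 15 tests. Between 16 and 4 weeks the differences were -17.1 points for miR-501 and 11.7 points for miR-362, with the same exact permutation p of 0.0286 and adjusted p of 0.107. Without 16-week replicate 1 the miR-362 difference was 7.33 points (exact permutation p = 0.0571). In each of these 4 the groups did not overlap, but the differences did not pass the correction. Of the 15 tests, 6 were on miR-188 and miR-532, which could not differ with at most 1 read. Adjusted over the other 9 alone, a choice made after seeing the data, the exact permutation p of these 4 was 0.0643. At 16 weeks against lean they were 12.9 points (exact permutation p = 0.143, adjusted p = 0.357) and -14.7 points (p = 0.0857, adjusted p = 0.257). In reads, lean libraries held 0.701 to 1.92 reads of miR-501-3p per read of miR-362-3p, against 6.50 to 12.9 after 4 weeks of HFD and 1.29 to 4.85 after 16. The lean and 16-week ranges overlapped, and the 4-week range lay above both. The hairpins of these arms are neighbours in the intron.

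As some miRNAs found in nearly every cell had no reads in this table (see above), whether it kept both arms of a hairpin alike is not known. In its reads, the arms of miR-501 and of miR-362 were unequal, with the 3p arm ahead in every library. Its share of the hairpin's reads was 98.9% ± 0.887, 96.8% ± 2.99 and 97.6% ± 0.908 for miR-501 in lean, at 4 and at 16 weeks (mean ± SD of 4 libraries). For miR-500 all reads were of the 3p arm (107, 49 and 190 in the same order). As no limit is set on the opposite arm of miR-500 (see above), this says nothing of how unequal its arms are. For miR-362 the 3p share stood at 95.4% ± 3.85 in lean, 74.2% ± 11.03 after 4 weeks of HFD and 85.5% ± 10.1 after 16. All lean libraries (90.2% to 98.5%) lay above all 4-week libraries (64.3% to 88.2%), a difference of -21.2 points (exact permutation p = 0.0286, adjusted p = 0.171 over 6 tests). The 4-week shares come from 14, 6, 9 and 17 reads, and the exact 95% interval of the lowest, 64.3%, ran from 35.1% to 87.2%, counting error only. At 16 weeks replicates 1 and 2 (95.2% and 93.2%) were in the lean range and replicates 3 and 4 (76.4% and 77.0%) below it. The remaining arm share comparisons had exact permutation adjusted p-values of 0.257 to 0.771.

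**Figure D4:**
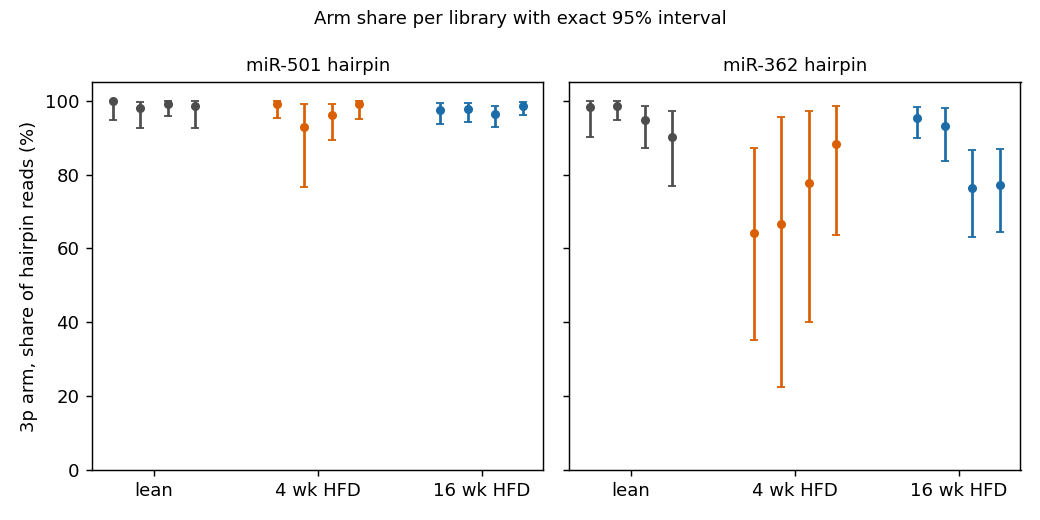
Share of the 3p arm (%) among the reads of the miR-501 and miR-362 hairpins in each library, with exact 95% binomial intervals, by group. For miR-501 the lowest library is at 92.9%, whereas for miR-362 the 4-week libraries lie between 64.3% and 88.2%, with wide intervals from 6 to 17 reads.

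Outside the cluster, the miRNAs whose log2(CPM + 1) over the 12 libraries was most like that of miR-501-3p were miR-151-3p (Pearson r = 0.92), miR-1981-5p (0.88), miR-322-3p (0.87), miR-544-5p (0.86) and miR-6931-5p (0.81), out of 91 miRNAs with reads in at least 10 libraries. The points share libraries, depth and the weight of miR-101b-3p. Within the cluster r with miR-501-3p was 0.83 for miR-362-5p, 0.58 for miR-500-3p, 0.53 for miR-501-5p and -0.23 for miR-362-3p. Compared with a second X-linked cluster, that of miR-322, miR-503 and miR-351, the log2 fold change of miR-501-3p at 4 weeks (2.22) stood beside 2.13 for miR-322-3p, 2.06 for miR-351-5p and 2.10 for miR-503-5p, each called by limma (adjusted p = 0.00262, 0.00878 and 0.0191). The opposite arms missed the threshold, with log2 differences of 1.86 for miR-322-5p, 1.85 for miR-351-3p and 1.84 for miR-503-3p.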

How the data were processed

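The deposited table gives CPM per mature miRNA for 12 libraries, a scale the authors set within each library. The submitters' processing notes name mm10 as the build, and cutadapt (1.13) and edgeR (3.16.5) as tools. The aligner and annotation are not given in the sources used here. Of 2664 values above 0, 2617 (98.2%) were whole multiples of the CPM of 1 read of their library (relative tolerance 1e-06). The exceptions all lie in 7 miRNAs, none a cluster member, which the count tests left out. Lists and members were chosen with earlier results of these data known.

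All miRNAs with at least 10 CPM in at least 4 libraries entered 1 fit of 3 groups (limma 3.58.1, R 4.3.3, log2(CPM + 1), empirical Bayes with trend, Benjamini-Hochberg, threshold 0.05, 2-sided). Fold changes are on that scale: those of low miRNAs depend on the pseudocount, which shrinks them or, where a library is at 0, can enlarge them. Count tests on the recovered reads used edgeR 4.0.16 (quasi-likelihood, TMM) and DESeq2 1.42.0. Shares were compared with exact permutation tests over libraries and carry Clopper-Pearson intervals. The limma and edgeR tests were tried on simulated reads, and the permutation test on made-up values. The simulated reads had a common mean profile apart from miRNAs changed at random, so they did not imitate the 4-week fall of miR-101b-3p. Named besides the members are miRNAs with a member's seed, the miR-322 cluster, miR-101b-3p and the 5 nearest profiles. Alternatives changed 1 choice at a time, except that the count tests also change the scaling and the miRNAs tested.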

Additional observations from a re-analysis of the deposited data

Results flagged for a closer look

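In 16-week replicate 1 the highest of 4 values stood far from the other 3 (Dixon's test at 95%, which chance alone passes in about 1 in 20 groups) in 3 of 32 sets of values of the cluster miRNAs and their shares. Its share of miR-362 among the cluster reads was 36.7%, against 18.2% to 20.42% in the other 16-week libraries. Without this library the difference in the miR-362 share was -19.1 points between 16 weeks and lean and 7.33 points between 16 and 4 weeks. The remaining 2 sets are the same single read of miR-532-3p, as 26.6 CPM and as 0.293% of its cluster reads. A single read beside 3 zeros always passes this test, so they say nothing of the library.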

How the results depend on the processing

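Among 13 other settings, miR-501-3p kept its 4-week call against lean in all, and with each of 12 libraries left out. At 4 weeks against lean 3 of 5 members and 56 of all 267 miRNAs were called. Members called fell to 1 with no filter (47 of 618 miRNAs) and with edgeR and no filter (38 of 611). With only the 2 groups compared 1 was called as well (42 of 267). Without miR-101b-3p in the total (63 of 266) and with TMM (60 of 267), 2 were called, 1 higher and 1 lower. DESeq2 gave the same split (49 of 161). With quantile scaling (54 of 267) and the replicate block (49 of 267) 2 were called, both higher. Members called ranged from 1 to 3 with a library left out. Between 16 and 4 weeks 1 of 5 members and 28 of all 267 miRNAs were called. The 1 member became 0 without miR-101b-3p in the total and under TMM or quantile scaling. It also became 0 with edgeR and no filter, with only the 2 groups compared and with no variance trend. In these settings 19 to 41 of all miRNAs were called. With a library left out 0 to 1 members were called.

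The 7 miRNAs limma called at 16 weeks against lean became 14 with a pseudocount of 10 or 500 or no variance trend, 13 with TMM, 20 with quantile scaling and 21 with only the 2 groups compared. The count tests gave 25 (edgeR), 33 (edgeR, no filter) and 31 (DESeq2), and leaving out a library 3 to 11. Between 16 and 4 weeks 28 miRNAs ranged from 21 to 44 with a library left out. Scaling moved the split of calls: at 4 weeks against lean 25 higher and 31 lower became 13 and 50 without miR-101b-3p and 15 and 45 with TMM. Between 16 and 4 weeks 17 higher and 11 lower became 28 and 6, and 32 and 9, and with a pseudocount of 500 it became 8 and 20. Without miR-101b-3p the median log2 difference of all miRNAs at 4 weeks against lean was -2.05.

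Some directions turned. For miR-500-3p the log2 difference at 4 weeks against lean became -0.17 without miR-101b-3p. Between 16 and 4 weeks it became 0.53 without miR-101b-3p, 0.50 with TMM and 0.20 with quantile scaling (-1.17 to 0.092 with a library left out). For miR-362-3p that difference became 0.86, 0.83 and 0.40 under the same settings, 0.48 with edgeR, 0.32 with DESeq2 and 0.84 with edgeR and no filter (-0.23 to 0.28 with a library left out). The 3p share of miR-501 differed by 0.775 points between 16 and 4 weeks, and by -0.55 to 1.55 with a library left out. The cause was not tested.

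Same-numbered libraries did not deviate together: 0 of 12 pairs had a correlation over 0.1 (-0.07 to 0.06), so the numbers were not taken as pairing. With the replicate block limma called 49, 7 and 24 miRNAs and 2, 0 and 1 members in the 3 comparisons, and miR-362-5p lost its call. For shares the block allows no exact p under 0.125. At 2352 to 4477 reads, the 4-week libraries limit every value of a few reads.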
